A study of Mus musculus with 4 samples.

Results

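The genes described here encode the respiratory chain and ATP synthase of mitochondria, in mouse HT-22 cells with and without induced Pja2. Members were chosen by symbol alone: every gene of the deposited table whose name starts with mt-Nd, mt-Co, mt-Cytb, mt-Atp, Nduf, Cox4 to Cox8, Uqcr or Atp5, or is Sdha, Sdhb, Sdhc or Sdhd, without the 7 names that mark pseudogenes. The rule took 103 of 24689 genes, of which 13 are encoded by the mitochondrial genome and 90 by the nucleus. The nuclear members comprise 38 named for complex I, 4 for complex II, 8 for complex III, 15 for complex IV, 17 for complex V and 8 complex I assembly factors of the Ndufaf group. HT-22 is an immortalized mouse line derived from hippocampal neurons, here at passages 21 to 24. The control group held 2 libraries of cells labelled both uninduced and WT, and the induced group held 2 libraries of cells with induced Pja2, titled Pja2-pb. Pja2 encodes a RING-type ubiquitin ligase. The labels give neither the construct or agent of the induction nor whether the line was 1 clone.

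The respiratory chain passes electrons from NADH (complex I) or succinate (complex II) through coenzyme Q, complex III and cytochrome c to oxygen (complex IV), and the proton gradient this builds drives ATP synthase (complex V). Complexes I, III, IV and V are mosaics of subunits from both genomes, whereas complex II is encoded by the nucleus alone. Mitochondrial messenger RNAs are cut from long polycistronic transcripts, so their levels are set differently from those of nuclear genes. Neurons depend strongly on this pathway for their ATP.

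Values are normalized read counts, obtained from the deposited log2 values, and a log2 fold change is induced minus control. The libraries held 25787452 and 31010351 reads in genes (control) and 30080376 and 35262653 (induced), so that 1 CPM (reads scaled by the library's total) stood for 25.8 to 35.3 reads. Pja2 itself stood at 6167 and 5881 normalized reads in the controls versus 54830 and 54244 after induction, a 9.05-fold difference (log2 fold change 3.18, SE 0.06, limma adjusted p = 6.36e-05). Of 13 neuron markers listed, 8 were in the table and 4 passed the filter of 1 CPM, with a summed level of 133 and 109 CPM in the controls versus 108 and 123 CPM after induction. Dlg4 (1603 to 2385 normalized reads over the 4 libraries), Syn1 (1072 to 1186) and Tubb3 (574 to 728) were expressed, Camk2a ran from 23.2 to 108, and Slc17a7, Nefl and Gria1 did not exceed 7 in any library. The 5 fibroblast markers, chiefly the collagen genes Col1a1 and Col1a2, summed to 8884 and 7789 CPM in the controls versus 8186 and 8148 CPM after induction. Markers of astrocytes summed to 104 and 92.5 against 105 and 130 CPM. Nearly all of this was Slc1a3 (107 CPM over the 4 libraries), while Aldh1l1 (1.10 CPM) and Gfap (0.204 CPM) were low. Markers of oligodendrocytes, leukocytes, endothelium and striated muscle did not exceed 6 CPM in any library.

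Induction of Pja2 was accompanied by small differences in the respiratory chain genes. The filter on low values passed 99 of the 103 members, 13 mitochondrial and 86 nuclear. Of these, 1 rose past an adjusted p of 0.05 (Ndufb4) and 0 fell, by limma with Benjamini-Hochberg adjustment over 13276 genes. Unadjusted limma p was under 0.05 for 10 of the 99 tested members, against 2535 of all 13276 tested genes. With limma voom on the recovered reads, 1 member was also called higher and 0 lower. Among all tested genes 3.42% were called, 2.08% higher and 1.34% lower. Nothing in the labels says whether the 2 libraries of a group are separate cultures, and the p-values therefore reflect library-to-library spread only, which may be technical. Log2 fold changes lay below 0 in 63 tested members and above 0 in 36, with a median of -0.06, beside 49.6% below 0 and a median of 0.00 over all tested genes. Both induced libraries lay below both controls in 30 tested members and above both in 10, where 25.1% and 26.2% of all tested genes did so.

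**Figure D1:**
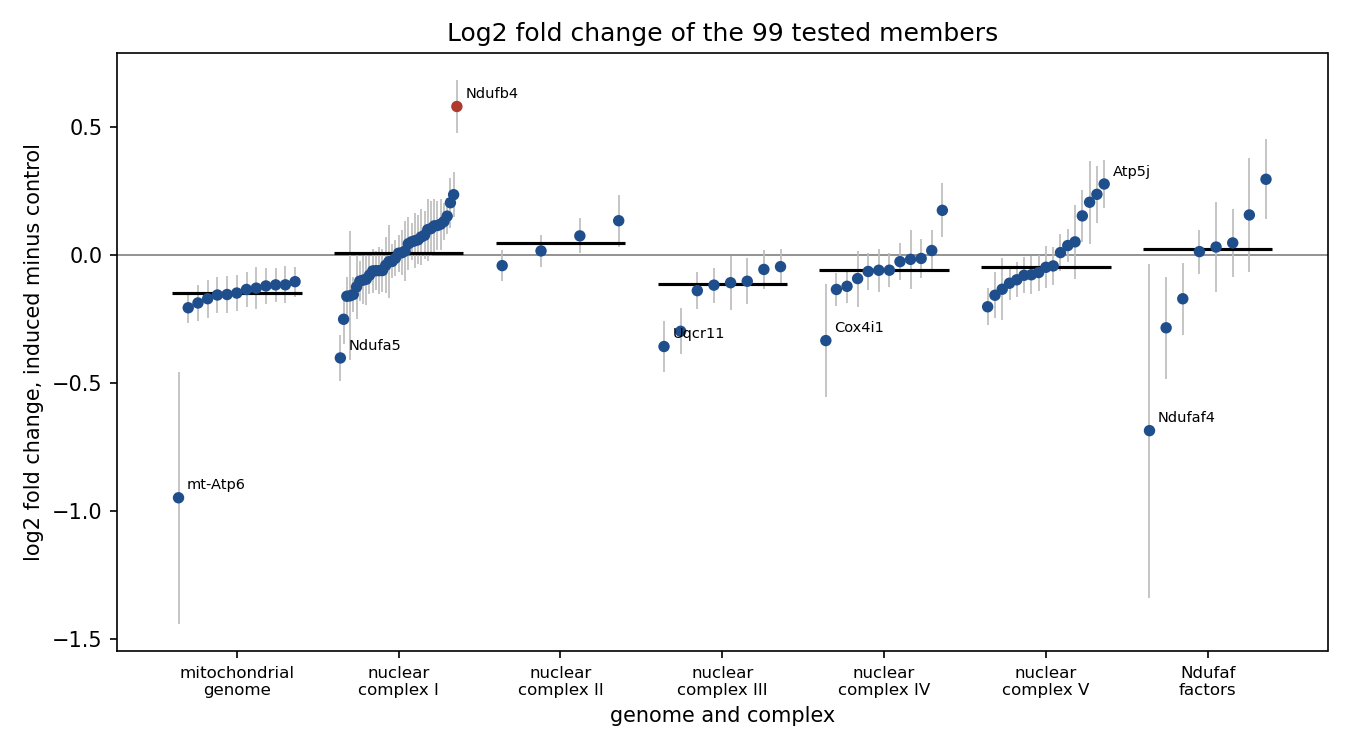
Log2 fold change of each of the 99 tested members (vertical axis, induced minus control, with SE as grey lines) by genome and complex, with the median of each group as a black bar and the 1 member past the threshold in red. The mitochondrial group lies below 0 in 13 of 13 genes with a median of -0.15, the complex III group in 8 of 8, and the complex I group centres on 0.01.

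The 13 mitochondrial genes all had lower mean levels in the induced cells. Their log2 fold changes ran from -0.95 to -0.10 with a median of -0.15. Both induced libraries lay below both controls in 12 of the 13, against 25.1% of all tested genes. None passed the threshold, and unadjusted p was under 0.05 for mt-Nd2 and mt-Atp8. The 13 genes share a genome and their precursor transcripts, so they are not 13 independent observations. Together they took 4.92% and 5.06% of all reads in the controls versus 4.48% and 4.33% after induction (4.99% ± 0.0948 and 4.40% ± 0.107, SD, n = 2). The groups did not overlap in this share. In whole-culture RNA, fewer cells with abundant mitochondrial transcripts and fewer such transcripts per cell cannot be told apart.

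Complex I has 7 mitochondrial subunits, which form the proton-pumping membrane arm. mt-Nd1 stood at 171728 and 181932 normalized reads in the controls versus 166199 and 159952 after induction (log2 fold change -0.12, adjusted p = 0.439). mt-Nd2 stood at 109985 and 113573 against 101264 and 95143 (-0.19, adjusted p = 0.226). Both induced libraries were lower for each of these 2 genes. mt-Nd4 read 122599 and 120158 against 113872 and 110046 (-0.12), and mt-Nd5 162121 and 154747 against 143776 and 147578 (-0.12). mt-Nd4l, whose reading frame overlaps the start of mt-Nd4, read 18334 and 17623 against 16510 and 16937 (-0.10). In all 3 the groups were again separate. mt-Nd3 was the 1 mitochondrial gene with overlapping groups, at 10691 and 11209 in the controls versus 10712 and 9349 after induction (-0.13, adjusted p = 0.451). mt-Nd6, the 1 protein gene on the other strand, read 42847 and 44230 against 40962 and 37357 (-0.15). The library kit does not mark strand, so reads of mt-Nd6 and of RNA antisense to it cannot be told apart.

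mt-Cytb, the catalytic cytochrome b of complex III, stood at 222628 and 221149 normalized reads in the controls versus 204267 and 196172 after induction (log2 fold change -0.15, adjusted p = 0.319). The 3 mitochondrial subunits of complex IV form its catalytic core. mt-Co1, which carries the oxygen-reducing centre, was the member with most reads, at 445903 and 438581 in the controls versus 396707 and 389108 after induction (0.888-fold, -0.17, adjusted p = 0.293). Its controls differed by far less than the gap between groups, and mt-Co1 alone held 1.38% and 1.34% of all reads in the controls against 1.21% and 1.19%. mt-Co2, which takes electrons from cytochrome c, read 113667 and 115320 against 107967 and 100749 (-0.13). mt-Co3 read 113711 and 115010 against 106758 and 98647 (-0.16). For both genes each induced library lay below each control.

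**Figure D2:**
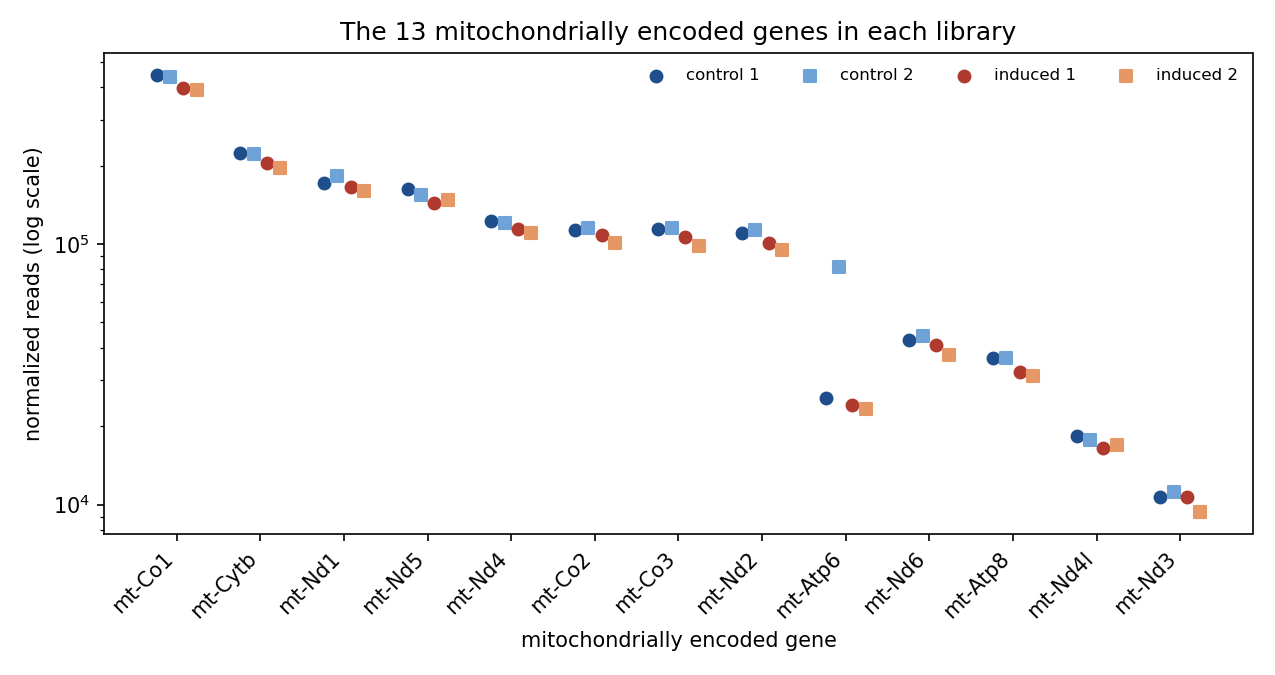
Normalized reads (log scale) of the 13 mitochondrially encoded genes in each library, controls in blue and induced cells in red and orange, ordered by mean level. The induced points lie just below the control points in 12 genes, and mt-Atp6 shows 1 control library at 81431 with the other 3 libraries between 23317 and 25721.

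The 2 mitochondrial subunits of ATP synthase, mt-Atp8 and mt-Atp6, are read from 1 messenger RNA with overlapping frames, and they gave the smallest and the largest replicate gap of the mitochondrial members in the controls. Their shared stretch is shown because a read inside it belongs to both genes, and how the authors counted such reads is not given in the sources used here. Both lines are the plus strand of chrM in GRCm38, 5′ to 3′, at chrM:7887-7969 (end of mt-Atp8) and chrM:7927-8009 (start of mt-Atp6), with the 43 shared bases in capitals.
mt-Atp8 end: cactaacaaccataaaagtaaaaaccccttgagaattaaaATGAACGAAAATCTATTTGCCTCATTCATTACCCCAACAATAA
mt-Atp6 start: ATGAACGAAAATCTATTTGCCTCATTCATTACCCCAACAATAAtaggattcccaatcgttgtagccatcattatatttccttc
mt-Atp8 stood at 36451 and 36568 normalized reads in the controls versus 32143 and 31168 after induction (0.867-fold, log2 fold change -0.21, SE 0.06, adjusted p = 0.142). mt-Atp6 stood at 25721 and 81431 in the controls versus 24161 and 23317 after induction (-0.95, SE 0.49, adjusted p = 0.362). Control 2 alone was high, and control 1 lay close to both induced libraries. Per kilobase of exon, mt-Atp6 had 119576 in control 2 and 37769 in control 1, against 179256 and 178681 for mt-Atp8. Which of these levels of mt-Atp6 reflects the shared messenger RNA was not tested. Without control 2 the log2 fold change of mt-Atp6 was -0.12, and without control 1 it was -1.78 with an adjusted p of 0.00198. Control 2 was not set apart in mt-Atp8, nor in mt-Co3, whose gene follows mt-Atp6.

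Per kilobase of annotated exon, the mitochondrial genes stood far above the nuclear ones. The exon length joins all annotated exons of a gene, whether or not these cells use them. It was 6883 bases for Ndufab1 and 6443 for Atp5l, against 1824 for mt-Nd5. Nuclear values per kilobase, and their order by complex, may therefore be too low for such genes. In the controls they ran from 31465 normalized reads per kilobase (mt-Nd3) to 286241 (mt-Co1) with a median of 107687. The 77 tested nuclear members other than the Ndufaf factors and the testis form Cox7b2 ran from 67.96 (Atp5s, not a structural subunit) to 9054 (Cox8a) per kilobase, with a median of 1485. Next to mt-Co1 came mt-Cytb at 193958, mt-Nd1 at 184776, mt-Atp8 at 178969 and mt-Co2 at 167388 per kilobase. mt-Nd3 stood lowest. mt-Nd4l (60535) came next by the control mean, but mt-Atp6, with a mean of 78672, stood at 37769 in control 1 and 119576 in control 2 and, at 35479 and 34239, below mt-Nd4l in both induced libraries too. By complex, with Cox7b2 included, the nuclear medians per kilobase were 899 for complex I, 1544 for complex II, 2553 for complex III, 2859 for complex IV and 2020 for complex V, and the Ndufaf factors had 152. The ranges of complexes I, II, III, IV and V overlapped. That of the Ndufaf factors (51.1 to 324) overlapped only those of complexes I and V.

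Nuclear members were spread on both sides of 0. Of the 86 tested, 50 had a log2 fold change below 0 and 36 above, with a median of -0.04. Both induced libraries lay below both controls in 18 (20.9%) and above both in 10. Among all tested genes 25.1% and 26.2% did so. Log2 fold changes stayed within 0.3 of 0 in 94.2% of them, against 78.5% of all tested genes and 87.6% of the 5822 genes at or above the lower quartile of the nuclear members' CPM. All 90 nuclear genes took 0.834% and 0.873% of reads in the controls versus 0.825% and 0.808% after induction.

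The median log2 fold change of the mitochondrial members was 0.11 lower than that of the nuclear members (difference -0.11). Per library, the median deviation of mitochondrial members minus that of nuclear members was 0.11 and 0.02 in the controls versus -0.06 and -0.08 after induction, with a replicate SD of 0.05. The ratio of summed reads, mitochondrial over nuclear, was 5.91 and 5.79 in the controls versus 5.43 and 5.36 after induction, 0.922-fold. Without mt-Atp6 it was 5.81 and 5.51 against 5.34 and 5.27. Both induced libraries lay below both controls in either form. These values describe a chosen list and carry no test.

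By complex, the ratio of mitochondrial to nuclear reads was 9.39 and 9.01 in the controls versus 8.36 and 8.41 after induction for complex I, whose nuclear subunits took 0.210% and 0.219% of reads against 0.217% and 0.210%. For complex III, whose nuclear sum lacks Cyc1 (outside the rule), it was 8.68 and 7.76 against 8.14 and 8.10, and the groups overlapped. For complex IV it was 13.3 and 13.6 against 13.2 and 12.7. Nuclear reads of complex IV are led by Cox4i1, which was high in control 1 alone, and without that gene the ratio was 17.2 and 15.9 against 15.4 and 15.2. For complex V it was 0.587 and 1.03 against 0.534 and 0.522 and, without mt-Atp6, 0.344 and 0.319 against 0.305 and 0.299. Whether those 2 genes were kept or left out, the induced libraries lay below the controls in complexes I, IV and V and between them in complex III.

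**Figure D3:**
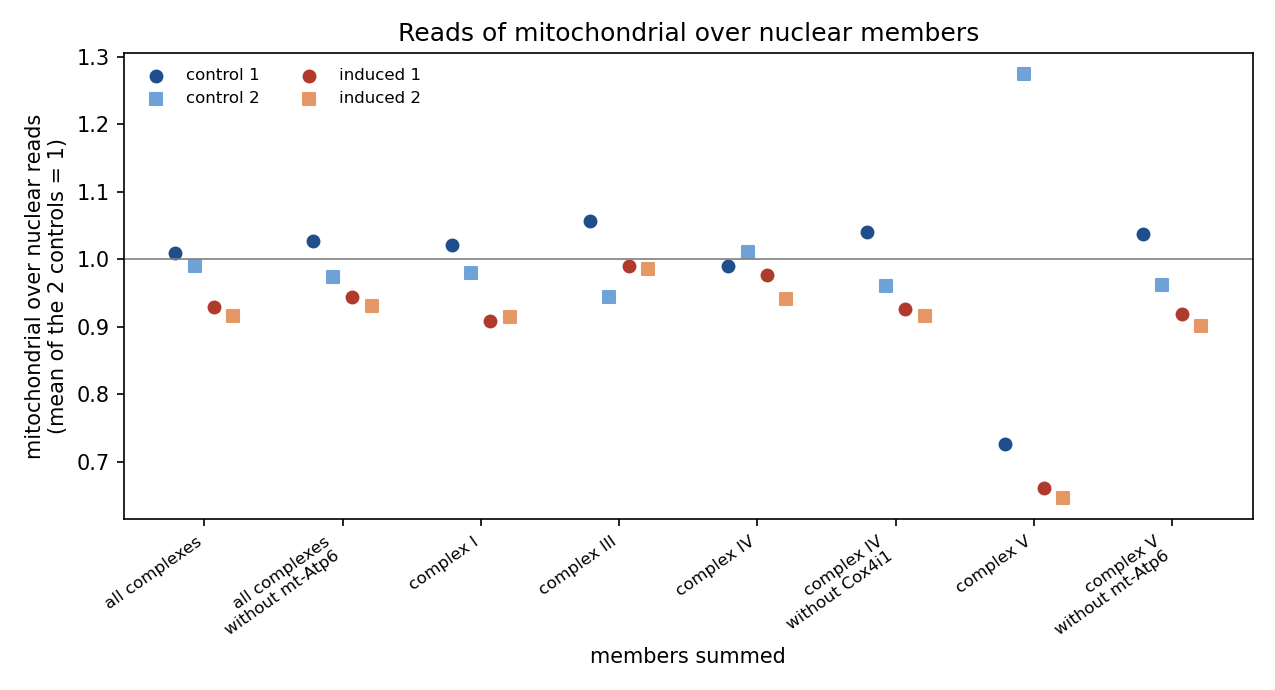
Summed reads of mitochondrial over nuclear members in each library, divided by the mean of the 2 controls (vertical axis), for all complexes and for each complex with subunits of both genomes. Induced libraries lie below both controls for all complexes together and for complexes I, IV and V, and between the 2 controls for complex III. In complex V control 2 stands apart unless mt-Atp6 is left out.

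Complex I is the largest of the complexes, and 37 of the 38 nuclear members named for it were tested. These counts follow the symbols and so include Ndufa4, now assigned to complex IV, and its relative Ndufa4l2. Ndufb4 rose, 0 fell, and the median log2 fold change was 0.01, with 18 below 0 and 19 above. Ndufb4, an accessory subunit of the membrane arm, stood at 597.3 and 678.2 normalized reads in the controls versus 956.9 and 945.9 after induction (1.49-fold, log2 fold change 0.58, SE 0.10, adjusted p = 0.0461). The groups were clearly apart, but the adjusted p lay close to the threshold. It was 0.0746 with the replicate block, 0.0908 without the filter on low values, and 0.0565 to 0.154 when each library was left out in turn.

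The other end of complex I was held by Ndufa5, an accessory subunit of the matrix arm, at 1500.2 and 1651.3 normalized reads in the controls versus 1229.8 and 1153.7 after induction (0.756-fold, log2 fold change -0.40, SE 0.09, adjusted p = 0.0793). Its groups did not overlap, but it missed the threshold. Ndufs4, a late-assembling matrix arm subunit whose loss causes Leigh-like disease in mice, read 1543 and 1684 against 1441 and 1273 (-0.25, adjusted p = 0.245). Ndufa6, an accessory subunit that binds the acyl carrier protein, read 1593 and 1518 against 1374 and 1407 (-0.16). Both had separate groups. Ndufv1, which carries the flavin that accepts electrons from NADH, read 2072 and 2361 against 2665 and 2544 (0.24, adjusted p = 0.231). Ndufb10, a membrane arm subunit, read 2544 and 2145 against 2670 and 2712 (0.20). Each of these 2 genes was higher in both induced libraries than in either control. Ndufs1, a core subunit of the electron path with many reads, read 4614 and 5098 against 5078 and 4973 (0.05, adjusted p = 0.749), with groups that overlapped.

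Complex II, succinate dehydrogenase, has no mitochondrial subunit and also serves the citric acid cycle. Its 4 genes all missed the threshold, with log2 fold changes from -0.04 to 0.13. Sdha, the flavoprotein that oxidizes succinate, stood at 7697 and 8198 normalized reads in the controls versus 8061 and 8002 after induction (0.02, adjusted p = 0.913). Sdhb, the iron-sulfur subunit, read 2339 and 2788 against 2900 and 2706 (0.13). The groups overlapped for both. Sdhc and Sdhd anchor the enzyme in the membrane. Sdhc read 3759 and 3787 against 3679 and 3653 (-0.04), with groups apart by a very small margin, and Sdhd read 3297 and 3505 against 3658 and 3503 (0.07), with groups that overlapped.

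The 8 nuclear genes of complex III that the rule took all had log2 fold changes below 0. They ran from -0.36 to -0.05 with a median of -0.11, and none passed the threshold. Both induced libraries lay below both controls in 4 of the 8, against 25.1% of all tested genes. The rule does not take Cyc1, the nuclear gene for cytochrome c1 of complex III, which had -0.02 with groups that overlapped. Uqcr11, a small subunit of the membrane domain, stood at 1673.7 and 1770.3 normalized reads in the controls versus 1450.6 and 1244.6 after induction (0.783-fold, -0.36, SE 0.10, adjusted p = 0.141). Uqcrq, which binds near the ubiquinone site, read 2261 and 2603 against 1959 and 1987 (-0.30, adjusted p = 0.159). Both groups were separate in each gene. Uqcrh, the hinge protein that contacts cytochrome c1, read 5544 and 5937 against 5410 and 5016 (-0.14). Uqcrfs1, the Rieske iron-sulfur protein, read 3186 and 3409 against 3038 and 3037 (-0.12). In these 2 genes as well both induced libraries were the lower ones. The core proteins Uqcrc1 and Uqcrc2 (-0.11 and -0.05) and the small subunits Uqcrb and Uqcr10 (-0.10 and -0.06) had overlapping groups.

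Of the 15 nuclear genes named for complex IV, 12 were tested, none passed the threshold, and 10 had log2 fold changes below 0 (median -0.06). Cox4i1, the regulatory subunit that binds ATP and the first nuclear subunit to join mt-Co1, stood at 11395 and 7038 normalized reads in the controls versus 6606 and 7641 after induction (-0.33, SE 0.22, adjusted p = 0.469). Control 1 alone was high. Without control 1 the log2 fold change was 0.01, and without control 2 it was -0.68 with an adjusted p of 0.0495. Exons of Cox4i1 overlap those of Emc8 in the annotation used for names, and how reads shared by both were counted is not given in the sources used here. Cox5b, the zinc-binding subunit, read 3161 and 3318 against 2975 and 2976 (-0.12). Cox7a2l, which takes part in joining complexes III and IV into supercomplexes, read 5375 and 5385 against 5066 and 4740 (-0.13). Both had separate groups. At the other end, Cox7a2 read 2726 and 2243 against 2760 and 2821 (0.17). Cox8a and Cox7c, small subunits of the membrane domain, had 0.02 and -0.01.

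Several complex IV subunits exist in widespread and tissue-restricted forms. The lung form Cox4i2 had 2, 0, 0 and 0 reads (controls 1 and 2, then induced 1 and 2), and the heart and muscle forms Cox6a2 and Cox7a1 had 4, 17, 18 and 16 reads and 6, 2, 2 and 3 reads. Ndufa4l2, the hypoxia-induced relative of Ndufa4, had 0, 5, 0 and 0 reads. These 4 were the members that did not pass the filter, and none reached 0.4% of the per kilobase level of its widespread partner (Cox4i1, Cox6a1, Cox7a2 and Ndufa4) in either group. Cox7b2, known as a form of testis, was the exception with 348, 464, 420 and 493 reads. It stood at 27.7% of Cox7b per kilobase in the controls versus 28.5% after induction, and its log2 fold change was -0.02. The widespread partners Cox6a1, Cox6b1 and Cox7b had log2 fold changes of -0.03, -0.09 and -0.06, and Ndufa4, now assigned to complex IV, had 0.15. Cox8b, Cox8c and Cox6b2 were absent, under these names, from the genes the authors provided and could not be analysed.

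All 17 nuclear genes named Atp5 were tested, none passed the threshold, and 10 had log2 fold changes below 0 (median -0.05). Atp5b and Atp5a1 encode the beta and alpha subunits of the catalytic head and had the most reads of the nuclear members. Atp5b stood at 34763 and 37611 normalized reads in the controls versus 33691 and 33306 after induction (-0.11), and Atp5a1 had a log2 fold change of -0.10. Both had separate groups. Atp5d, of the central stalk, read 4367 and 4779 against 3895 and 4049 (-0.20, adjusted p = 0.218), also with separate groups. Atp5o, the subunit that sits on the head as part of the peripheral stalk, read 4771 and 5319 against 4801 and 4251 (-0.16). Atp5g1, 1 of the 3 genes for the proton-carrying ring, read 1558 and 1966 against 1585 and 1605 (-0.13). In these last 2 genes the groups overlapped. Atp5j, coupling factor 6 of the peripheral stalk, read 2413 and 2231 against 2622 and 3014 (1.21-fold, 0.28, SE 0.09, adjusted p = 0.196), with both induced libraries above both controls. Atp5s and Atp5sl, which carry the name without being structural subunits, had 0.21 and 0.24.

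The 8 Ndufaf genes encode proteins that build complex I and leave it afterwards. None passed the threshold, 3 had log2 fold changes below 0 and the median was 0.02. Ndufaf4 stood at 454 and 510 normalized reads in the controls versus 636 and 140 after induction (-0.69, SE 0.65, adjusted p = 0.615). Induced 1 was the highest of the 4 libraries and induced 2 the lowest, a 4.52-fold gap between replicates. Without induced 1 the log2 fold change was -1.77 with an adjusted p of 0.0096, and without induced 2 it was 0.40. Ndufaf2, a chaperone of the late assembly steps, read 414 and 532 against 613 and 541 (0.30), with separate groups. Ndufaf6 and Ndufaf1 had log2 fold changes of -0.28 and -0.17, and Ndufaf3, Ndufaf8 and Ndufaf7 had 0.16, 0.05 and 0.01, with groups that overlapped in each.

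Replicates of a group differed by more than 1.5-fold in 4 of the 99 tested members (4.04%), against 9.45% of all tested genes and 2.83% of the 5822 genes at or above the nuclear members' lower quartile. Besides mt-Atp6, Cox4i1 and Ndufaf4 this was Ndufv3, a flavoprotein-fragment subunit of complex I, at 2634 and 1868 normalized reads in the controls versus 2496 and 1581 after induction (-0.16, and -0.49 to 0.17 with a library left out). The library that stood apart was not the same 1 in these genes: control 2 for mt-Atp6, control 1 for Cox4i1 and induced 2 for Ndufaf4.

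**Figure D4:**
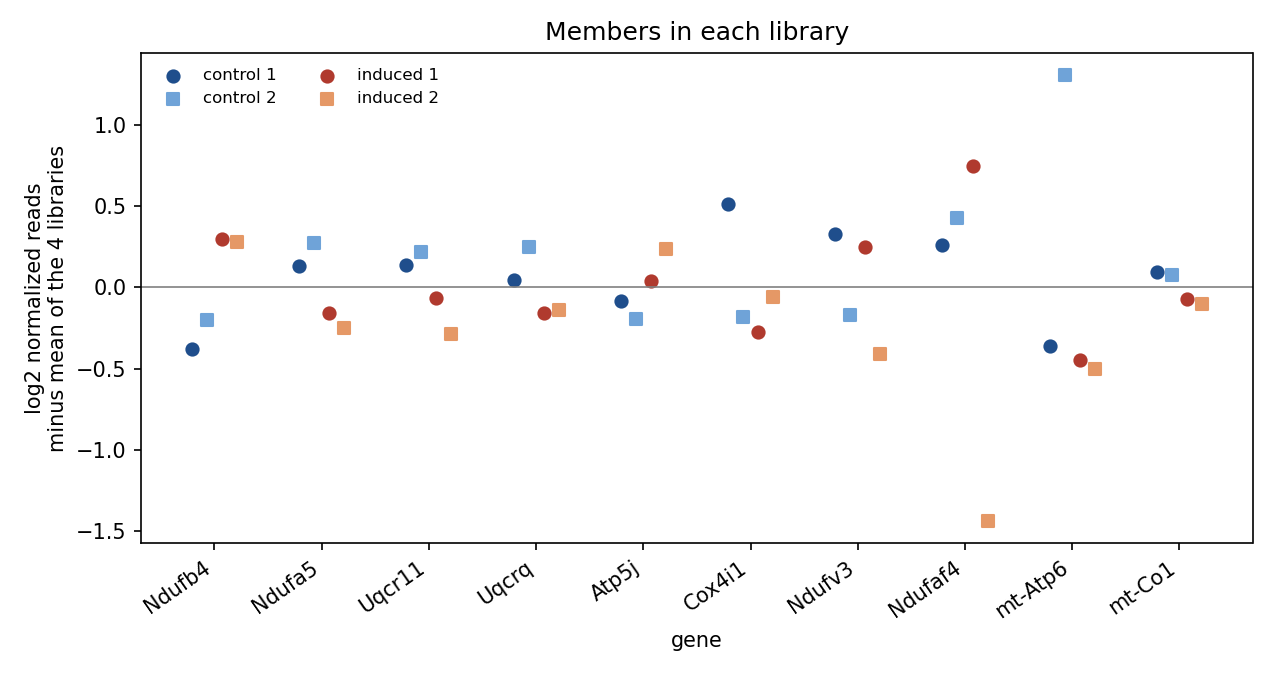
Log2 normalized reads of 10 members in each library, as the difference from the mean of the 4 libraries. Ndufb4, Ndufa5, Uqcr11, Uqcrq, Atp5j and mt-Co1 separate by group, whereas Cox4i1, Ndufv3, Ndufaf4 and mt-Atp6 have a replicate gap above 1.5-fold.

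Ndufb4 lies on chromosome 16, where many genes had higher values in the induced cells. Of 403 tested genes there, 85 rose and 6 fell (22.6% called) and the median log2 fold change was 0.31. Outside chromosome 16 the median was 0.00, and 191 of 12873 genes rose and 172 fell (2.82%). The 20 tested genes nearest to Ndufb4, 10 on each side, had a median of 0.56, with 19 above 0 and 12 that rose. The value of Ndufb4 exceeded that median by 0.02. The nearest 20 genes of Atp5j had a median of 0.07, and those of Atp5o also 0.07, so Atp5j lay 0.21 above and Atp5o 0.22 below its neighbours (difference -0.22). Of the 83 tested nuclear members outside chromosome 16, 0 were called. Unadjusted p was under 0.05 in 6 of them, against 2306 of the 12873 tested genes there. With chromosome 16 left out of the fit, a setting added after the data were seen, which removes Ndufb4 itself, no other member passed. The part of the chromosome in the value of Ndufb4 was not tested.

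**Figure D5:**
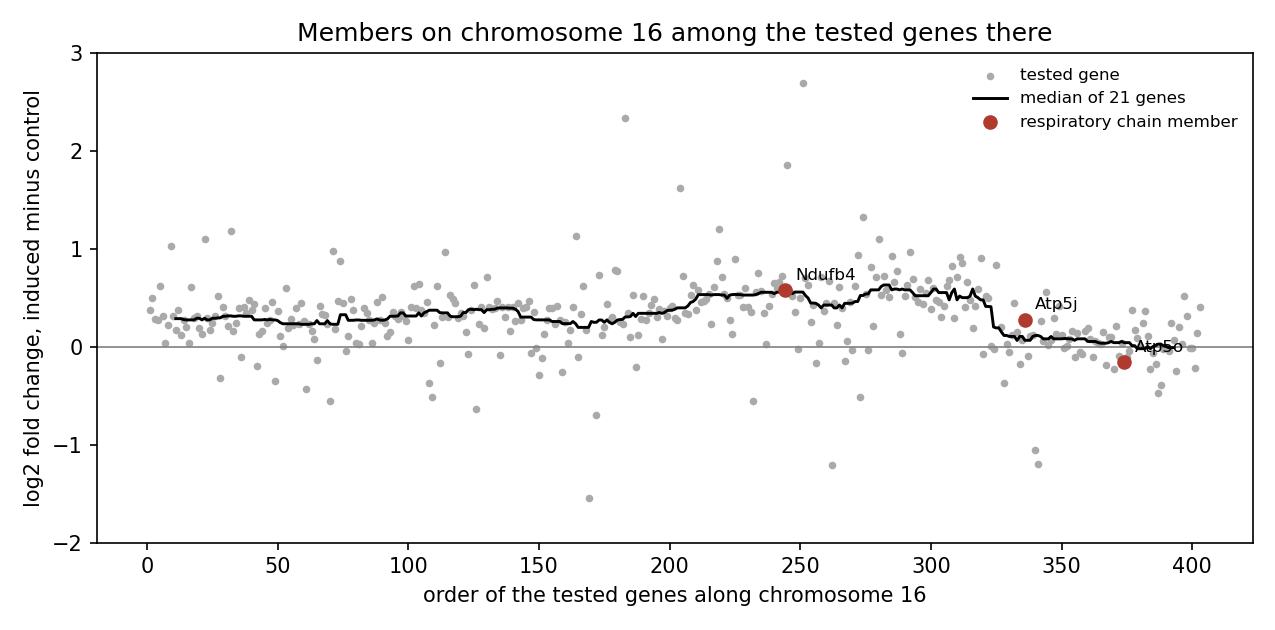
Log2 fold change of the 403 tested genes of chromosome 16 in gene order (grey; 3 genes lie outside the drawn range), with the running median of 21 genes (black) and the 3 nuclear members there in red. Ndufb4 lies on the running median within a stretch of raised values, and Atp5j and Atp5o lie past its end.

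Many nuclear respiratory genes carry sites for nuclear respiratory factor 1 (NRF1) and for the ETS factor GABP in their promoters. The 250 bases before the RefSeq start (GRCm38.p6) could be searched for 75 of the 90 nuclear members, 3 of them matched by a synonym. The NRF1 core CGCANGCG, on either strand, was found in 21 of 75 (28.0%), against 16.8% of the 9193 tested genes with a promoter and 7.65% of all 27025 genes. The ETS letters CCGGAAG were in 14 (18.7%), against 16.6% and 7.83%. The YY1 letters AAGATGG were in 2 (2.67%, against 5.33% and 5.18%) and the estrogen-related receptor letters AAGGTCA in 5 (6.67%, against 3.24% and 4.70%). The promoters of the members at both ends of complex I are shown because both hold the NRF1 core (capitals), 3 times in Ndufb4 and once in Ndufa5, while their log2 fold changes had opposite signs. They lie on the minus strand at chr16:37654369-37654618 and, for the more upstream of the starts of Ndufa5, at chr6:24527691-24527940, and are written 5′ to 3′ in the direction of the gene.
Ndufb4: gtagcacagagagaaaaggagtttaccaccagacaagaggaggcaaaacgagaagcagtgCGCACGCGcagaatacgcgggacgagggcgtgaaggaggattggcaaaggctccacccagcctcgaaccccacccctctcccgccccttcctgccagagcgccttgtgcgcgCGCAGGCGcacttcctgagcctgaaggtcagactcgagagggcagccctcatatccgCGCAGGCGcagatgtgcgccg
Ndufa5: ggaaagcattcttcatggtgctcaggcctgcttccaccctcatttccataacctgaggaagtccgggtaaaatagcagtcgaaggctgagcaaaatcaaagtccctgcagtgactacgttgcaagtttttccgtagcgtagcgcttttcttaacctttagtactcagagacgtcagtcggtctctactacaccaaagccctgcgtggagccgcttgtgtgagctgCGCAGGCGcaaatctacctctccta
A match to these letters is a description of the window and no measured site.

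In each list of genes around the respiratory chain 0 or 1 gene was called. Among all tested genes 3.42% were called, and lists of this length say little beside that share. Of the 18 tested genes for cytochrome c, coenzyme Q synthesis and electron entry 0 were called (median -0.05), and the pair with most reads on that list, Cyc1 (cytochrome c1 of complex III) and Etfa, had log2 fold changes of -0.02 and -0.03. Of 49 tested further assembly factors 0 were called (median 0.02), and of 34 genes that maintain, transcribe and process mitochondrial DNA and RNA 1 rose (median 0.05). That gene was Trmt10c, a subunit of the RNase P that cuts tRNAs out of mitochondrial precursors. It stood at 558 and 646 normalized reads in the controls versus 972 and 958 after induction (log2 fold change 0.68, SE 0.11, adjusted p = 0.0348, and 0.107 at most with a library left out). Trmt10c also lies on chromosome 16, and its 20 neighbours had a median of 0.52 with 8 that rose. Lrpprc and Grsf1, which bind mitochondrial messenger RNAs, had -0.05 and -0.09.

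Among 12 tested regulators of mitochondrial gene programmes 0 were called (median -0.06). Ppargc1a, the coactivator PGC-1alpha, read 368 and 366 normalized reads against 182 and 241 (-0.81, SE 0.17, adjusted p = 0.0739), with groups far apart but short of the threshold. Of 23 citric acid cycle genes Idh2, the mitochondrial NADP-dependent isocitrate dehydrogenase, fell, from 9427 and 9744 to 7595 and 7608 (-0.33, adjusted p = 0.0422), and the list's median was -0.05. Of 9 carriers and channels Vdac1, a porin of the outer membrane, fell, from 9558 and 9992 to 7309 and 7192 (-0.43, adjusted p = 0.0259), with a list median of 0.02. Both genes had tight replicates and separate groups, and Idh2 lost its call whichever library was left out (adjusted p 0.0779 to 0.173), and Vdac1 in some of these fits (0.0455 to 0.0955). Of 22 genes of mitochondrial fusion, fission and turnover and 13 of protein quality control 0 were called, with medians of -0.01 and 0.00. Cs and Mdh2 of the citric acid cycle had -0.12 and -0.07, the carriers Slc25a3 and Slc25a4 -0.11 and -0.02, and the chaperones Hspd1 and Hspa9 -0.02 and -0.03.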

How the data were processed

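Per the labels' protocols, Trizol RNA entered a TruSeq RNA kit, whose reads carry no strand. HISAT, Cufflinks and build mm9 are named, with no tool versions, in the submitters' processing notes. For counting and scaling the method is not given in the sources used here. Log2 values of 24689 genes were deposited by the authors. After undoing the log2 and the added 1, 100% of values in each library were whole multiples of 1 step within 0.01 (largest distance 0.000774), so the deposited log2 values are log2(normalized read count + 1) and whole reads could be recovered.

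Log2 values were tested with limma 3.58.1 (R 4.3.3), with a variance trend, both groups and no covariate, over genes whose mean reached 1 CPM, two-sided, adjusted by Benjamini-Hochberg over 13276 genes, threshold 0.05. The pseudocount of 1 understates changes of low genes. The planned quasi-likelihood count test was not run, because the deposited unit is log2; limma voom on recovered reads stands as the check on counts. The code was tested on simulated data. A fold is the ratio of mean normalized reads; values per kilobase divide by the exon length in the GENCODE annotation of GRCm38, used for names, order, length and exon overlap, since the build differs. Of the 103 members, 103 matched it, and exons of 42 overlap another gene's. Replicate numbers were no block: deviations of same-numbered libraries correlated at -0.0950 over all tested genes.

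Members and lists were chosen with earlier results of these data known. Genes named by rule were the mitochondrial members, Sdh genes, members past the threshold, the 3 highest, 3 lowest and 2 most abundant of each nuclear group, isoform pairs and, in each related list, genes past the threshold and the 2 with most reads; Ndufv3, Uqcrfs1, Ppargc1a and the genes of the observations were named after their values were seen. The values of 1 item that the rule names are not reported here. Alternatives covered the filter, scaling, pseudocount, voom, the replicate block and each library left out.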

Additional observations from a re-analysis of the deposited data

How the results depend on the processing

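The call of Ndufb4 held under a filter of 5 CPM, both rescalings, a pseudocount of 5 and limma voom. Without the filter on low values and with the replicate block the count of members that rose was 0, and with each library left out it was 0 throughout. Without chromosome 16 (added after the data were seen) it was 0 by construction, since that removes Ndufb4. The count that fell was then 0 to 1: mt-Atp6 without control 1, Cox4i1 without control 2 and Ndufaf4 without induced 1. Over all genes, 276 rose and 178 fell. Without the filter these were 100 and 59, with the replicate block 157 and 104, with a library left out 114 to 210 and 81 to 138, and 169 rose without chromosome 16. The replicate numbers are only shared numbers, and a group left with 1 library was assumed to vary like the other group.

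The mitochondrial minus nuclear median (-0.11) ran from -0.157 to -0.0797 with a library left out, and 13 of 13 mitochondrial members stayed below 0 in every setting run. The upper quartile scaling raised genes nearly alike, the median of all genes to 0.04, so that genes just below 0 passed it, among the genes named by rule Cox6a1 (0.0096), Cox7b2 (0.018) and Cox7c (0.022). With a library left out, the sign turned in 42 of 99 tested members and in 0 of the 13 mitochondrial ones. Among those named by rule the ranges of log2 fold change were: Atp5g1 -0.30 to 0.034, Cox4i1 -0.68 to 0.014, Cox6a1 -0.10 to 0.050, Cox6b1 -0.23 to 0.045, Cox7b2 -0.097 to 0.062, Cox7c -0.065 to 0.038, Cox8a -0.077 to 0.11, Ndufaf3 -0.042 to 0.35, Ndufaf4 -1.77 to 0.40, Ndufaf7 -0.030 to 0.056, Ndufaf8 -0.0053 to 0.099, Ndufs1 -0.021 to 0.12, Sdha -0.030 to 0.061, Uqcr10 -0.12 to 0.0079 and Uqcrc1 -0.26 to 0.042. None of these was called in the fit of all libraries. The causes were not tested. The 4 members under the filter are limited by depth, and for the others the number of libraries limits the precision.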

Other observations

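The RNAs of the mitochondrial genome that encode no protein also had mostly lower values in the induced cells. mt-Rnr2, the large ribosomal RNA, fell from 32686 and 34002 normalized reads in the controls to 26273 and 25870 after induction (log2 fold change -0.35, SE 0.06, limma adjusted p = 0.0388), a call that was lost when any library was left out (adjusted p 0.0665 to 0.187). mt-Rnr1, the small ribosomal RNA, read 10376 and 11671 against 10582 and 10165 (-0.09), with groups that overlapped. Of the 22 tRNA genes 16 were tested, 14 of them with log2 fold changes below 0.

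mt-Tm, the tRNA for methionine, was the 1 tRNA gene past the threshold. It fell from 88.0 and 95.8 normalized reads to 28.3 and 35.2 (-1.51, adjusted p = 0.0442, and 0.0847 to 0.129 with a library left out). The 2 tRNA genes beside it, between mt-Nd1 and mt-Nd2, had values of like size. mt-Tq lies on the other strand, which the library kit does not mark. A fragment may also span more than 1 of these neighbouring genes, so their values are not independent observations. mt-Ti read 65.4 and 77.9 against 23.9 and 27.8 (-1.43, adjusted p = 0.0630), and mt-Tq read 42.8 and 56.9 against 18.5 and 19.5 (-1.33, adjusted p = 0.111). The protein genes on either side differed far less, at -0.12 (mt-Nd1) and -0.19 (mt-Nd2). mt-Tt and mt-Tk went the other way, with log2 fold changes of 0.71 and 0.50. Whether these reads come from mature tRNAs or from precursors was not tested.

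Further assembly genes on chromosome 16 had higher values without passing the threshold. Timmdc1, a complex I assembly factor, read 482 and 375 normalized reads in the controls versus 723 and 661 after induction (0.70, adjusted p = 0.0729). Cox17, the copper chaperone of complex IV, had 0.35 and Tmem186 had 0.41. The running median of 21 genes along the chromosome was 0.52 at Timmdc1, 0.56 at Cox17 and 0.31 at Tmem186. Cox17 thus lay below the level of its region, and Timmdc1 and Tmem186 above theirs. Pet117, a complex IV assembly factor on chromosome 2, read 234 and 164 against 165 and 0.93, so that 1 library set its log2 fold change of -3.46 (adjusted p = 0.388).

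Among the cell type markers, the fibroblast proteoglycan Dcn was past the threshold, falling from 1049 and 765 normalized reads in the controls to 222 and 329 after induction (-1.72, adjusted p = 0.0259, and up to 0.0661 with a library left out). The other fibroblast markers listed were not called, with log2 fold changes of 0.12 (Col1a1), -0.04 (Pdgfra), -0.07 (Col1a2) and -0.38 (Thy1). The part of Dcn in the values of the respiratory chain genes was not tested.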
